A study of Mus musculus with 18 samples.

Results

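The laminins, type IV collagens and their linker proteins form the core of basement membranes. They were followed here through the array probes named for Lama1, Lama5, Lamb1 (Lamb1-1 in the array design), Lamc1, Col4a1, Col4a2, Nid1, Nid2 and Hspg2. Of these 9 genes, 8 had a non-control probe under their own name, with 11 probes in all, out of 24969 genes measured. No probe was named Hspg2. A probe named by the accession M77174, which the files describe as mouse perlecan mRNA, is given beside the members and was chosen after its values were seen.

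A laminin molecule is a cross of 1 alpha, 1 beta and 1 gamma chain that assembles inside the cell, and secreted laminins polymerise into a sheet bound by integrins and dystroglycan. Type IV collagen is a triple helix, in most tissues of Col4a1 and Col4a2 chains, that forms a separate covalent network. Nidogens and the proteoglycan perlecan (Hspg2) tie both networks together. Parietal endoderm of the mouse yolk sac is known for secreting very large amounts of these proteins into Reichert's membrane, and fibroblasts also make type IV collagen and nidogen.

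RNA was read on 18 Agilent 2-colour arrays, which gave 36 channels. The differentiating clones were clones 8, A6 and B2, which are Dnmt3ab-deficient induced pluripotent stem cells (iPSC) that the submitters labelled as showing some signs of differentiation (12 channels). The deficient iPSC were the same 3 clones without that label (6 channels). The other channels held control iPSC lines 3, 4, 5 and 6 (12 channels), V6.5 embryonic stem cells (ESC, 3 channels) and mouse embryonic fibroblasts (MEF, 3 channels). All iPSC had been kept on irradiated MEF feeders and passaged 1 to 2 times on gelatin without new feeders. The labels do not name the origin or genotype of the control lines, nor the cell type that the differentiating clones became. V6.5 ESC and MEF were 1 RNA each, so their own spread was not measured. The submitters marked the differentiating, ESC and MEF channels as left out of their published statistics.

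The cell line was the replicate in tests on line values. Each line value below is 1 log2 signal, estimated from the channels by 1 fit over all arrays with a dye term. It is not a plain average and can lie outside the channels of its own line. Lama1 in differentiating clone B2, for example, had a line value of 11.90, against 11.18 to 11.50 in its 4 channels. Without the array of clone 8 with control line 5, described below, that line value was 11.46, inside these channels. A higher log2 signal of a probe means a brighter spot, and levels are compared only within a probe. Whether the lines came from separate reprogramming events was not stated, so p-values of tests on line values measure only the spread between these lines. The MEF and ESC contrasts and the test between clones were fitted on array ratios, so their p-values measure the spread between arrays. In these bulk samples, fewer cells of a type and less RNA per cell cannot be told apart. Dnmt3a, which was targeted in the deficient cells, had log2 signals of 9.58, 9.34 and 9.12 in differentiating clones 8, A6 and B2, of 8.98, 9.85 and 9.77 in the deficient iPSC of these clones, and of 10.53 to 11.35 in control lines. It was lower than in control lines in both states, by −1.68 ± 0.21 on the log2 scale in differentiating clones (SE, adjusted p = 0.0252) and by −1.48 ± 0.27 in deficient iPSC (adjusted p = 0.00503). Dnmt3b, the other target, had 13.17 to 13.34 in differentiating clones, 12.34 to 13.50 in deficient iPSC and 12.41 to 13.99 in control lines. These overlapped, with adjusted p of 0.904 for differentiating clones and 0.596 for deficient iPSC. Whether either probe lies in a deleted part was not given.

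Of the 12 arrays that held a differentiating clone beside a control line, the array of clone 8 with control line 5 stood apart. Its log2 ratios had an SD of 0.206 and 120 probes over 2-fold, against 890 to 1581 such probes on the other 3 arrays of clone 8. The array of A6 with control line 3 came next, with an SD of 0.222 and 259 probes, and its Lama1 ratio was 1.82, against 2.28 to 2.71 on the other arrays of A6. The other 10 arrays had 532 to 1581 such probes. The channel labelled control line 5 had a Lama1 signal of 13.39 there, against 9.06 and 9.07 on the other arrays of that line. Its Col4a1 signal was 14.05, against 10.47 and 10.65, and its Dnmt3a signal was 9.78, against 11.04 and 11.06. The clone 8 channel of the same array had a Lama1 signal of 13.24, against 13.40 to 13.61 in the other clone 8 channels. In other members this clone 8 channel also lay outside the other clone 8 channels, with a Lamb1 signal of 14.40 against 15.43 to 15.57, a Col4a1 signal of 13.69 against 14.60 to 14.70, a Nid1 signal of 13.01 against 13.91 to 14.15 and a Nid2 signal of 11.87 against 13.34 to 13.54. Its Lama5 signal of 13.51 was above their 12.59 to 12.79. The library labelled control line 5 on this array therefore went against its label in Lama1, Col4a1 and Dnmt3a, and the clone 8 library beside it differed from the other clone 8 libraries. The choice to leave this array out was made after its values were seen. Counts of members called are given with all arrays and without this array (both channels). Other values are given without it mainly where its removal changes a call, a count or an order of clones. They are also given where the removal puts a differentiating clone above MEF.

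Lama1, Lamb1, Lamc1, Col4a1 and Col4a2 had their highest iPSC signals in the differentiating clones, above every control line in all 3 clones. Lama1 was lowest of all kinds of RNA in MEF, while Col4a1 and Col4a2 were highest there with all arrays. Differentiating clone 8 was above MEF for Col4a1 once the array that stood apart was left out. Nid1 was highest in MEF, Nid2 was highest in ESC, and the iPSC groups overlapped for Lama5.

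**Figure D1:**
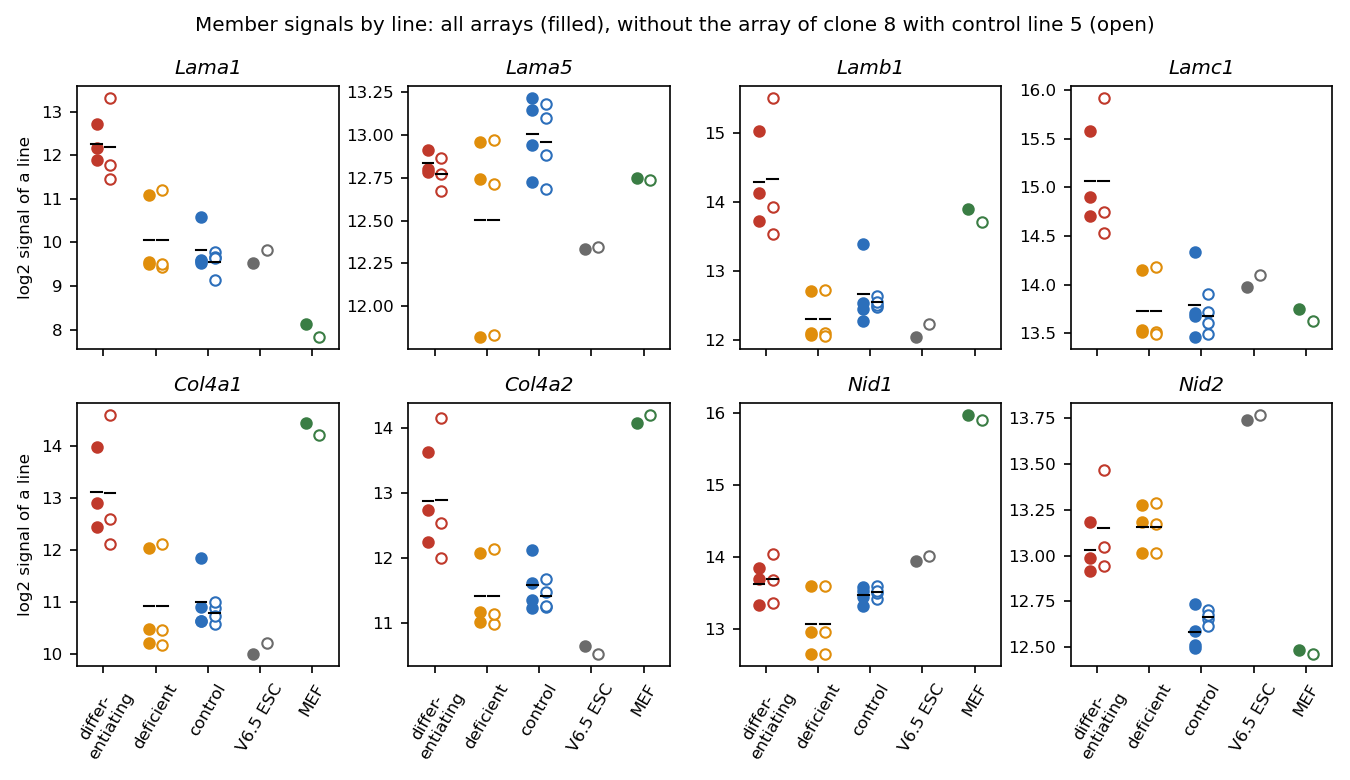
Log2 signal (vertical axes) of each member in differentiating clones, deficient iPSC, control lines, V6.5 ESC and MEF, with 1 point per cell line. Filled points use all arrays and open points leave out the array of clone 8 with control line 5. Lama1 is lowest in MEF at 8.13, whereas Col4a1, Col4a2 and Nid1 are highest in MEF at 14.43, 14.06 and 15.97 among the filled points. Among the open points differentiating clone 8 (14.59) is above MEF (14.21) for Col4a1.

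The alpha chains carry the part of laminin that binds cell surface receptors. Lama1, the alpha chain of laminin-111 in early embryonic basement membranes, had log2 signals of 12.72, 12.18 and 11.90 in differentiating clones 8, A6 and B2, of 11.09, 9.50 and 9.54 in deficient iPSC of these clones, of 9.53, 9.61, 10.58 and 9.58 in control lines 3, 4, 5 and 6, of 9.53 in ESC and of 8.13 in MEF. With the array that stood apart left out, differentiating clones 8, A6 and B2 were at 13.32, 11.79 and 11.46 and control line 5 at 9.13. All 3 differentiating clones lay above all deficient and control lines in both settings, and the deficient and control ranges overlapped. Deficient clone 8 was above the other 2 deficient clones in both settings.

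Lama5, the alpha chain of laminin-511 that ESC secrete and attach to, had log2 signals of 12.79, 12.91 and 12.80 in differentiating clones, of 11.82, 12.74 and 12.96 in deficient iPSC, of 12.94, 13.15, 13.22 and 12.73 in control lines, of 12.33 in ESC and of 12.75 in MEF. The 3 iPSC groups overlapped, and ESC lay below all lines other than deficient clone 8.

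Lamb1, the beta chain shared by laminin-111 and laminin-511, had log2 signals of 15.03, 14.13 and 13.72 in differentiating clones, of 12.71, 12.10 and 12.07 in deficient iPSC, of 12.27, 12.53, 13.39 and 12.45 in control lines, of 12.04 in ESC and of 13.90 in MEF. Differentiating clones 8 and A6 lay above the MEF value and clone B2 just below it. Lamc1, the gamma chain of the same laminins, had 15.58, 14.90 and 14.70 in differentiating clones, 14.15, 13.53 and 13.51 in deficient iPSC, 13.71, 13.67, 14.34 and 13.46 in control lines, 13.98 in ESC and 13.75 in MEF. Every differentiating clone was above MEF for Lamc1, and without the array that stood apart control line 5 was at 13.61 for Lamc1 and 12.50 for Lamb1, among the other control lines.

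Col4a1 and Col4a2, the alpha chains of the ubiquitous type IV collagen, were the members with the widest range over the 5 kinds of RNA beside Lama1. Col4a1 had log2 signals of 13.98, 12.90 and 12.44 in differentiating clones 8, A6 and B2, of 12.04, 10.21 and 10.47 in deficient iPSC, of 10.62, 10.90, 11.85 and 10.64 in control lines, of 9.98 in ESC and of 14.43 in MEF. Col4a2 had 13.62, 12.74 and 12.24 in differentiating clones, 12.07, 11.02 and 11.17 in deficient iPSC, 11.36, 11.61, 12.11 and 11.23 in control lines, 10.64 in ESC and 14.06 in MEF. With all arrays both genes had the same order of kinds: MEF highest, then the 3 differentiating clones, then overlapping deficient and control lines, then ESC. Leaving out the array that stood apart put differentiating clone 8 at 14.59 for Col4a1, against 14.21 in MEF, and at 14.14 for Col4a2, against 14.19 in MEF. In that setting differentiating clone B2 had 11.99 for Col4a2 and lay below deficient clone 8 (12.13), and ESC had 10.21 for Col4a1 and lay above deficient A6 (10.16).

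Among the linkers, Nid1, the major nidogen of most basement membranes, had log2 signals of 13.85, 13.69 and 13.33 in differentiating clones, of 13.60, 12.95 and 12.64 in deficient iPSC, of 13.31, 13.53, 13.58 and 13.44 in control lines, of 13.94 in ESC and of 15.97 in MEF. MEF stood above every other kind and the iPSC groups overlapped. Differentiating clone 8 was at 14.04 without that array, just above ESC (14.01). Nid2, its paralog, had 13.18, 12.99 and 12.92 in differentiating clones, 13.27, 13.01 and 13.18 in deficient iPSC, 12.51, 12.50, 12.74 and 12.59 in control lines, 13.74 in ESC and 12.49 in MEF. Both deficient groups lay above all control lines for Nid2, and did so without that array, when differentiating clone 8 was at 13.47. The perlecan probe M77174 had 14.95, 14.43 and 14.38 in differentiating clones, 13.80, 13.63 and 13.55 in deficient iPSC, 14.11, 14.23, 14.42 and 14.46 in control lines, 13.93 in ESC and 15.57 in MEF, and differentiating clone 8 was at 15.22 without that array.

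Lama1, Col4a1 and Col4a2 had 2 probes each, and the brighter one gave the values above (positions on mouse build mm7, as the files give them). The Lama1 probe used lay at chr17:66089045-66090007, and the dimmer at chr17:66077770-66077829. The dimmer Lama1 probe was well above background in 12 of 12 differentiating channels, 2 of 6 deficient, 12 of 12 control, 3 of 3 ESC and 0 of 3 MEF channels, and its difference between differentiating clones and control lines was 1.36, against 2.44 for the probe used. The Col4a1 probes (chr8:11167020-11167079, used, and chr8:11167857-11169691) gave 2.10 and 1.62, and the Col4a2 probes (chr8:11416851-11416910, used, and chr8:11416191-11416250) gave 1.29 and 1.24. Paired probes thus had the same direction in this comparison. The single probes lay at chr2:180677286-180677300 for Lama5, chr12:29168364-29169711 for Lamb1, chr1:153180095-153180153 for Lamc1, chr13:12854881-12854940 for Nid1 and chr14:17469250-17469309 for Nid2. All probes except the dimmer Lama1 probe were well above background in every channel. The files do not give the exon or UTR of a probe.

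Setting differentiating clones against control lines asks how far the membrane genes moved in clones with signs of differentiation, on arrays that hold both. Of the 8 members, 2 were called higher (Lama1 and Nid2) and 0 lower at an adjusted p under 0.05, where 4.95% of all genes were called (2.35% higher and 2.6% lower). Without the array that stood apart 2 were called higher (Lama1 and Lamc1) and 0 lower, where 8.67% of all genes were called. In 6 of 8 members (Lama1, Lamb1, Lamc1, Col4a1, Col4a2 and Nid2), all 3 differentiating clones lay above all 4 control lines, with and without the array that stood apart. Of all genes, 9.88% did so with all arrays and 11.2% without that array. The median difference was 1.28 over the members and 0.00 over all genes.

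Lama1 rose by 2.44 ± 0.31 (SE, 3 clones and 4 control lines, adjusted p = 0.0256), or by 2.64 ± 0.44 without the array that stood apart (adjusted p = 0.0189). The call was lost without differentiating clone A6 (2.49, adjusted p = 0.121), without B2 (2.63, adjusted p = 0.103), without control line 3 (2.35, adjusted p = 0.0918) or without control line 4 (2.37, adjusted p = 0.08). The fits without A6, without B2 and without control line 3 called 0 of 24969 genes, and the fit without control line 4 called 27. With all arrays the loss of the call was thus shared by nearly all genes, and the Lama1 difference moved little in size. With the array that stood apart also left out, 624 genes were called without A6 and 943 without B2. The numbers were then 1065 without control line 3 and 647 without control line 4. Nid2 rose by 0.45 ± 0.085 (adjusted p = 0.0417). It missed the threshold without the array that stood apart (0.49 ± 0.12, adjusted p = 0.0571), without any single differentiating clone (0.37 to 0.50, adjusted p = 0.0648 to 0.144) and without control line 3 or 4 (0.42 each, adjusted p = 0.124 and 0.123). Of these fits without 1 line, that without clone 8 called 1098 genes and the others 0 to 27.

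Col4a1 was above control lines by 2.10 ± 0.45 (adjusted p = 0.0504), which missed the threshold. Lamc1 had a difference of 1.27 ± 0.27 (adjusted p = 0.0525), Lamb1 of 1.63 ± 0.38 (adjusted p = 0.063) and Col4a2 of 1.29 ± 0.36 (adjusted p = 0.0921). These became, with that array left out, 2.31 for Col4a1 (adjusted p = 0.0533), 1.38 for Lamc1 (adjusted p = 0.0497, called), 1.79 for Lamb1 (adjusted p = 0.0569) and 1.48 for Col4a2 (adjusted p = 0.123). With all arrays these 4 differences were larger than that of Nid2, and their SE of 0.27 to 0.45 were larger than its 0.085. Lama5 (−0.17 ± 0.12, adjusted p = 0.517), Nid1 (0.16 ± 0.13, adjusted p = 0.607) and M77174 (0.28, adjusted p = 0.403) were not called.

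Each slide of these arrays held 1 clone and all 4 control lines. The mean log2 ratio of Lama1 within a slide was 2.51 for clone 8 (3.40 without the array that stood apart), 2.31 for A6 and 2.06 for B2. For Col4a1 it was 2.59 (3.58), 1.74 and 1.30, and for Col4a2 1.76 (2.34), 1.13 and 0.66. Lamb1 had 2.18 (2.97), 1.40 and 0.99, and Lamc1 had 1.77 (2.31), 1.21 and 1.03. All 5 genes were thus higher in the differentiating clone on each slide. Nid1 changed direction between slides, with 0.32 (0.50), 0.15 and −0.23, and Nid2 had 0.62 (0.83), 0.37 and 0.32.

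**Figure D2:**
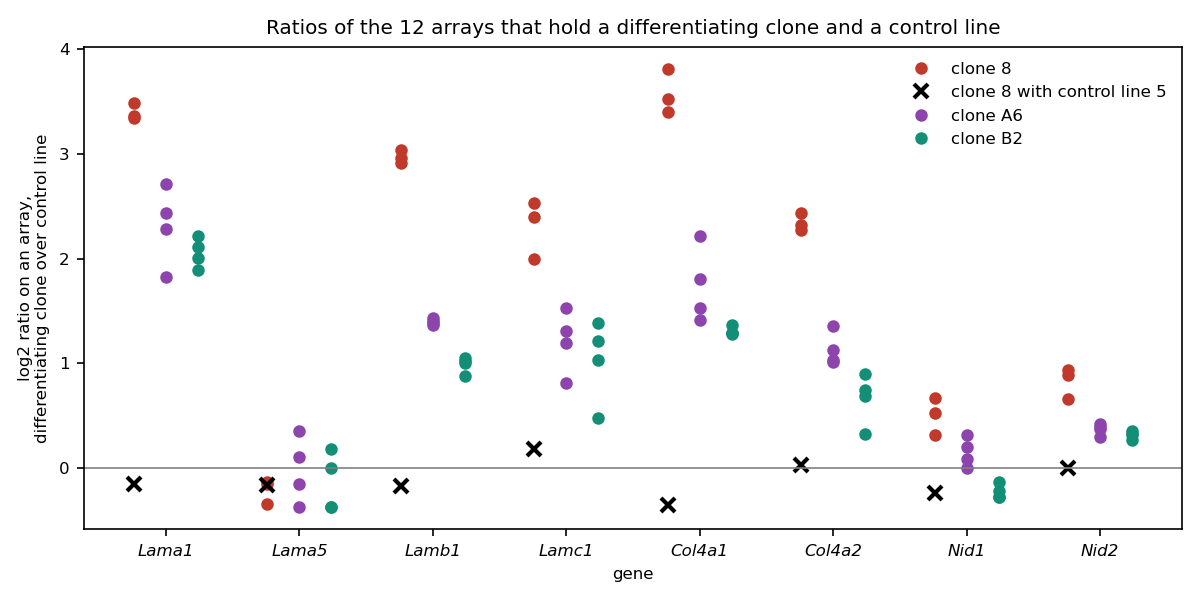
Log2 ratio of differentiating clone over control line (vertical axes) for each member on the 12 arrays, grouped by clone; the black cross is the array of clone 8 with control line 5. On that array Lama1 is at −0.16 and Col4a1 at −0.36, while the other 3 arrays of clone 8 are at 3.34 to 3.48 for Lama1 and 3.40 to 3.81 for Col4a1.

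The size of the change was compared between clones on these ratios (clone 8 minus the mean of A6 and B2). With all arrays 0 of 8 members were called, where 15.5% of all genes were (7.03% higher and 8.43% lower), and Nid1 came closest (0.36, adjusted p = 0.0584). Without the array that stood apart all 8 members were called, 7 higher and 1 lower. Of all genes 32% were called there, with 3714 of 24899 higher and 4247 lower. Clone 8 then exceeded the other clones by 2.09 ± 0.086 for Col4a1 (adjusted p = 1.09e-05), by 1.79 ± 0.033 for Lamb1 (adjusted p = 1.6e-06) and by 1.49 ± 0.045 for Col4a2 (adjusted p = 5.15e-06). The excess was 1.28 for Lama1, 1.26 for Lamc1, 0.52 for Nid1 and 0.48 for Nid2, and Lama5 was lower by −0.20 ± 0.034 (adjusted p = 0.00377). These SE hold the spread between arrays only, and since each clone had a slide of its own, clone and slide cannot be told apart. The array was left out after its values were seen. Taking out its ratios of −0.16 for Lama1 and −0.36 for Col4a1 by itself raises clone 8 in these genes. The calls without it are therefore a description only.

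The 2 states of the same clones were compared as 3 pairs. Here 6 of 8 members were called higher in the differentiating state (Lama1, Lamb1, Lamc1, Col4a1, Col4a2 and Nid1) and 0 lower, where 52.4% of all genes were called (33.1% higher and 19.3% lower). Without the array that stood apart the same 6 were called, where 47.7% of all genes were. These 6 members were higher in all 3 clones in both settings, as were 47.2% of all genes with all arrays and 46.1% without that array. The 2 states lay on different arrays, slides and scan days, so state and scan day cannot be told apart. The median difference was 1.39 over the members and 0.07 over all genes.

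Per clone, Lama1 was higher by 1.63 in clone 8, by 2.68 in A6 and by 2.35 in B2, a mean of 2.22 ± 0.22 (adjusted p = 0.00487). Col4a1 was higher by 1.94, 2.68 and 1.97 in the same clones (mean 2.20 ± 0.17, adjusted p = 0.00413), and Col4a2 by 1.55, 1.72 and 1.08 (mean 1.45 ± 0.14, adjusted p = 0.00474). Lamb1 rose by 2.32, 2.02 and 1.66 (mean 2.00 ± 0.14, adjusted p = 0.00409), and Lamc1 by 1.42, 1.37 and 1.19 (mean 1.33 ± 0.061, adjusted p = 0.00409). In these 5 genes the 3 clones differed from each other by less than their common shift. Nid1 rose less, by 0.56 ± 0.11 (adjusted p = 0.02), and its call was lost without clone A6 (0.47, adjusted p = 0.106), without clone B2 (0.49, adjusted p = 0.0827) and with the states taken as unpaired (0.56, adjusted p = 0.126). Without clone A6 limma called 0 genes (10321 had an unadjusted p under 0.05), and Lama1 then had 1.99 and Col4a1 1.95 (adjusted p = 0.0517 for both). Lama5 (0.33, adjusted p = 0.292) and Nid2 (−0.13, adjusted p = 0.154) were not called, and M77174 rose by 0.93 ± 0.086 (adjusted p = 0.00454). Leaving out the array that stood apart left the 6 members called, at 2.14 for Lama1, 2.19 for Col4a1 and 0.63 for Nid1. The order of the clones then changed in Lama1, Col4a1 and Col4a2. Clones 8, A6 and B2 had 2.12, 2.37 and 1.95 for Lama1 and 2.48, 2.44 and 1.66 for Col4a1. For Col4a2 they had 2.01, 1.55 and 0.85, and for Lamb1 2.79, 1.84 and 1.48.

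**Figure D3:**
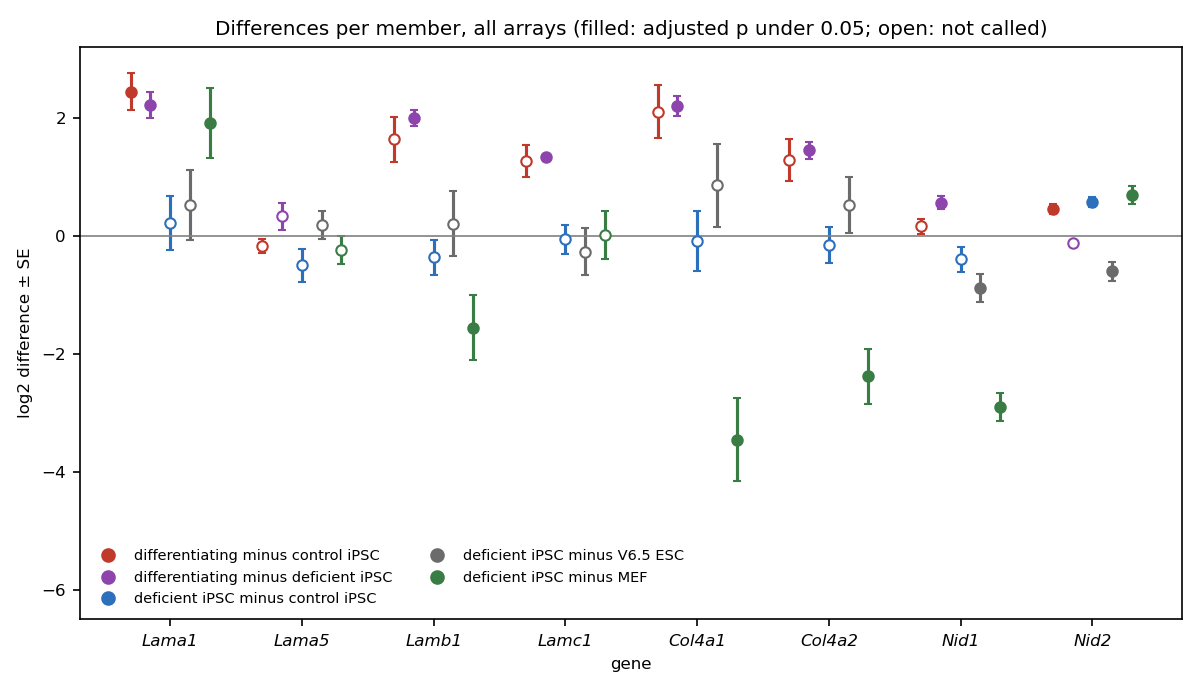
Log2 difference ± SE of each member (horizontal axes) in 5 comparisons, with filled points for an adjusted p under 0.05. Lama1 lies near 2 in the comparisons of differentiating clones and of deficient iPSC with MEF (1.91), whereas Col4a1 (−3.46) and Col4a2 (−2.38) lie far below 0 against MEF.

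The series set out to compare deficient iPSC with control iPSC. Of the 8 members, 1 was called higher (Nid2) and 0 lower, where 46.2% of all genes were called (15.2% higher and 31% lower). Without the array that stood apart this was 1 higher and 0 lower, where 45.1% of all genes were called. Nid2 was higher by 0.57 ± 0.084 (adjusted p = 0.00206), or 0.49 ± 0.066 without the array that stood apart (adjusted p = 0.00151), and all 3 deficient clones lay above all 4 control lines, as they did for 17.1% of all genes (16.8% without that array). Lama1 (0.22, adjusted p = 0.716), Lama5 (−0.50, adjusted p = 0.182), Lamb1 (−0.36, adjusted p = 0.353), Lamc1 (−0.06, adjusted p = 0.858), Col4a1 (−0.09, adjusted p = 0.895), Col4a2 (−0.16, adjusted p = 0.704) and Nid1 (−0.40, adjusted p = 0.167) were not called. M77174 fell by −0.64 ± 0.10 (adjusted p = 0.00307). Deficient and control iPSC shared no slide and no scan day, so that genotype and scan day cannot be told apart in any of these values. The differentiating clones and deficient iPSC are compared with the same 4 control lines, so the differences of Nid2 in both (0.45 and 0.57) share those lines.

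When arrays were not normalized against each other, the median of all genes moved to 0.44 in this comparison and to −0.44 between the 2 states. Relative to that median, Nid2 was 0.42 above in deficient iPSC against control lines, and between the states Lama1 was 2.23 above, Col4a1 2.17, Lamb1 2.16, Lamc1 1.51, Col4a2 1.44 and Nid1 0.75. Nid1 then missed the threshold between the states as measured (0.31, adjusted p = 0.0559), and Nid2 was called lower (−0.41, adjusted p = 0.00483) while lying 0.03 above the median.

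Against fibroblasts, hybridised on the same arrays, deficient iPSC had 2 of 8 members called higher and 4 lower, where 58.1% of all genes were called (28.2% higher and 30% lower). The same 6 were called without the array that stood apart, where 58.5% of all genes were. MEF was read only in Cy3 and ESC only in Cy5, so the dyes were not swapped in either contrast. The dye term could come only from the arrays of differentiating clones with control lines. With all arrays these included the array that stood apart. The SE here and against ESC rest on a spread of ratios pooled over all arrays, not on that between the deficient clones. With all arrays, Lama1 thus had the same SE of 0.594 against MEF and against ESC. Without the array that stood apart, its SE was 0.444 in both. Lama1 was higher than in MEF by 1.91 ± 0.59 (adjusted p = 0.011) and Nid2 by 0.69 ± 0.16 (adjusted p = 0.00109). Col4a1 was lower by −3.46 ± 0.71 (adjusted p = 0.000467), Nid1 by −2.91 ± 0.24 (adjusted p = 1.3e-08), Col4a2 by −2.38 ± 0.47 (adjusted p = 0.000328) and Lamb1 by −1.56 ± 0.55 (adjusted p = 0.0225). Lamc1 (0.01, adjusted p = 0.986) and Lama5 (−0.25, adjusted p = 0.403) were not called, and M77174 was lower by −1.84 ± 0.22 (adjusted p = 1.38e-06). The Lama1 call was lost without the array of clone 8 (1.39, adjusted p = 0.097) and with the mean of its 2 probes (1.13, adjusted p = 0.105). The Lamb1 call was lost without the array of clone B2 (−1.46, adjusted p = 0.0776) or A6 (−1.41, adjusted p = 0.088).

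No array held a differentiating clone beside MEF, and the 2 were read on different scan days, so their levels stand side by side without a test. The mean of the 3 differentiating clones exceeded MEF by 4.14 log2 units for Lama1, by 1.31 for Lamc1, by 0.54 for Nid2, by 0.39 for Lamb1 and by 0.08 for Lama5. It was below MEF by −1.33 for Col4a1, −1.20 for Col4a2 and −2.35 for Nid1. Leaving out the array that stood apart gave 4.37 for Lama1, 1.44 for Lamc1, 0.69 for Nid2, 0.62 for Lamb1, 0.03 for Lama5, −1.11 for Col4a1, −1.30 for Col4a2 and −2.22 for Nid1. Lama1 and Lamc1 were above MEF in each differentiating clone. The gap was smaller in the dimmer Lama1 probe, with 9.74, 8.48 and 8.01 in clones 8, A6 and B2, against 7.08 in MEF. That probe was not well above background in MEF. Lamb1 was above MEF in clones 8 and A6 and below it in clone B2 (13.72 against 13.90, or 13.54 against 13.71 without that array).

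Against V6.5 ESC, deficient iPSC had 0 members called higher and 2 lower, where 5.41% of all genes were called (3.54% higher and 1.87% lower). Both were also called without the array that stood apart, where 6.58% of all genes were. Nid1 was lower by −0.88 ± 0.24 (adjusted p = 0.0398) and Nid2 by −0.61 ± 0.16 (adjusted p = 0.033). The Nid1 call was lost without the array of clone B2 (−0.67, adjusted p = 0.261) or A6 (−0.83, adjusted p = 0.17), and the Nid2 call was lost without the array of any 1 clone (−0.52 to −0.65, adjusted p = 0.0632 to 0.189). The other members were not called, from −0.27 for Lamc1 to 0.85 for Col4a1.

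Over the 12 line values, Col4a1 and Col4a2 had a Pearson r of 0.991, which is given as a description since lines share arrays and clones. Lamb1 and Lamc1 had an r of 0.855, and of 0.982 over the 10 iPSC values. Lama1 and Col4a1 had an r of 0.397 over the 12 values and of 0.979 over the 10 iPSC values, and the r was 0.973 with only MEF left out and 0.361 with only ESC left out. MEF was thus the value off the common line of these genes. Without the array that stood apart these r were 0.985 for Col4a1 with Col4a2, 0.868 for Lamb1 with Lamc1, 0.429 for Lama1 with Col4a1 over the 12 values and 0.971 with only MEF left out. Lama5 had an r of −0.07 with Lama1 and 0.01 with Col4a1 (−0.27 and −0.15 without that array). Among non-members, the 5 genes most like Lama1 over the 12 values were Sox17 (r = 0.983), Frmpd1 (0.979), CF584628 (0.978), Foxa2 (0.966) and Lgals2 (0.964). With the array that stood apart left out they were Sox17 (0.983), Klb (0.973), Frmpd1 (0.970), Hkdc1 (0.964) and Lgals2 (0.963), so that CF584628 and Foxa2 were no longer among them. Those most like Col4a1 were Dram1 (0.984), Efhd2 (0.981), Dab2 (0.973), Pdgfra (0.970) and Rassf8 (0.964), and the same 5 genes led without that array (0.961 to 0.991).

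**Figure D4:**
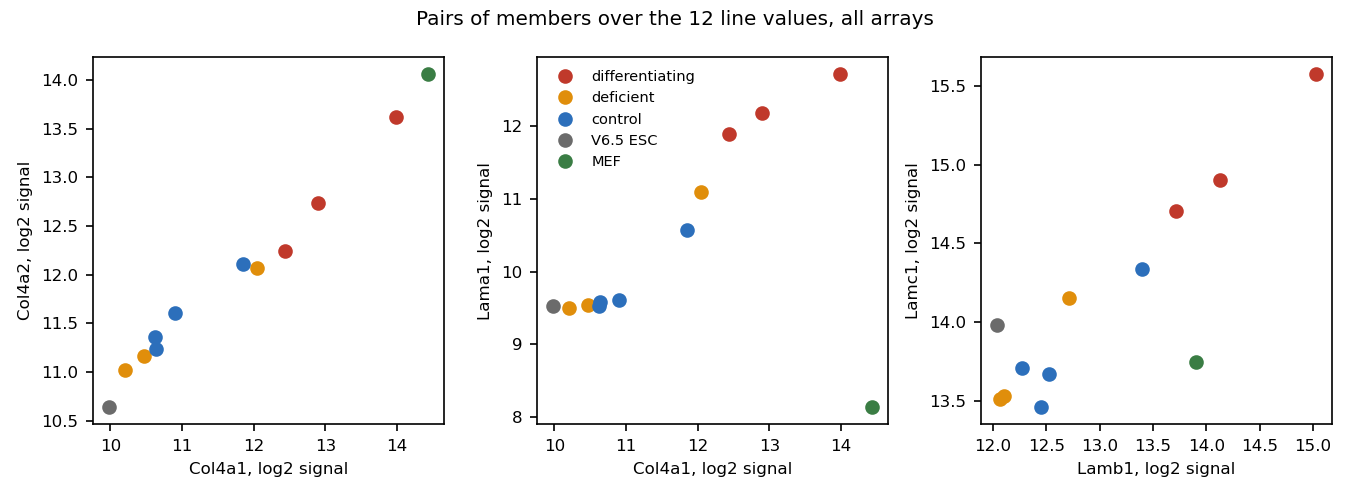
Pairs of members plotted against each other as log2 signals over the 12 line values (Col4a1 with Col4a2, Col4a1 with Lama1, Lamb1 with Lamc1), coloured by kind of RNA. Col4a1 and Col4a2 lie on 1 line through all kinds (r = 0.991), while MEF is high in Col4a1 at 14.43 and low in Lama1 at 8.13.

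Start regions are printed from RefSeq (build GRCm38.p6) for Col4a1 and Col4a2, the pair with the most alike signals, and for Lamb1 and Nid1, a laminin chain and a linker. Each has 250 bases before and 50 after the start, 5′ to 3′ on the strand of the gene. Capitals mark the Sp1 motif, GGGCGG, or the CCAAT box, on either strand, so that a match on the other strand reads CCGCCC or, for the CCAAT box, ATTGG. Their positions are chr8:11312777-11313076 (minus strand) for Col4a1, chr8:11312555-11312854 (plus) for Col4a2, chr12:31265043-31265342 (plus) for Lamb1 and chr13:13437352-13437651 (plus) for Nid1.
Col4a1: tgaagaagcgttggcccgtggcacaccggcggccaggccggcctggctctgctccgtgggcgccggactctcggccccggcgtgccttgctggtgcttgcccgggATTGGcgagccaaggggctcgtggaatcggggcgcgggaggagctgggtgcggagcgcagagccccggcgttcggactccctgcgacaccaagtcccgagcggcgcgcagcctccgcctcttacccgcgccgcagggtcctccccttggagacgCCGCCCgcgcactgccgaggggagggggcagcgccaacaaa
Col4a2: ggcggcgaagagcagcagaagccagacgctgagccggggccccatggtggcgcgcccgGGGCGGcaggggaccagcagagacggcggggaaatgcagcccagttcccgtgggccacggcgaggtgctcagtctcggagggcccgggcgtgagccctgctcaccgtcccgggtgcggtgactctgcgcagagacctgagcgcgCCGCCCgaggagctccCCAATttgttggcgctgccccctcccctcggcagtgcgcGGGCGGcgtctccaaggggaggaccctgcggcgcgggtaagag
Lamb1: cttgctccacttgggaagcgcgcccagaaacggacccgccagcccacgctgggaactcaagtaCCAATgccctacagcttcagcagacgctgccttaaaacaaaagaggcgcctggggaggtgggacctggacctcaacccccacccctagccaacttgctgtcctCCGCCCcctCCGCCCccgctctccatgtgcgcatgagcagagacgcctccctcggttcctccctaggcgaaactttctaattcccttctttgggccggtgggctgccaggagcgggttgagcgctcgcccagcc
Nid1: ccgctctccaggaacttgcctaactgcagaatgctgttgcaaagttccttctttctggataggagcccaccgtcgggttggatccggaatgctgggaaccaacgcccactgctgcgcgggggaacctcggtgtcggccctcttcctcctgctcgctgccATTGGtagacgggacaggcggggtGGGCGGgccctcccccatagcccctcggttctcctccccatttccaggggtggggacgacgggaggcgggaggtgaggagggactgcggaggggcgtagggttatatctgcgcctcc

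The Col4a1 and Col4a2 genes lie on opposite strands, with start positions 21 bases apart (chr8:11312826 for Col4a1 and chr8:11312805 for Col4a2). Each start lies inside the other transcript, so that the first bases of the 2 genes overlap. Their windows share 78 bases, in which there is 1 Sp1 motif. The Sp1 motif was found on either strand in all 6 members with a window (these 4, Lama5 and Hspg2) and in 35.7% of the 32851 windows of the same length. CCAAT was found in Col4a1, Col4a2, Lamb1 and Nid1, and in 37.4% of all windows. AGATAA (the GATA motif; 11.2% of windows), ACAATG (12.6%) and ATTGTT (10.7%), both SOX motifs that overlap each other on opposite strands, were in none of the 6. CG pairs numbered 37 in Col4a1, 33 in Col4a2, 18 in Lamb1, 20 in Nid1, 24 in Lama5 and 27 in Hspg2, against a median of 7 over all windows. Windows of Lama1, Lamc1 and Nid2 were not used here. A match is a description of these letters only.

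The machinery that folds and exports procollagen was read as a list of 21 measured genes. The shares of all genes called higher and lower apply to this and the later lists. They were 2.35% and 2.6% for differentiating clones against control lines, and 33.1% and 19.3% between the states. Deficient iPSC had 15.2% and 31% against control iPSC, 28.2% and 30% against MEF, and 3.54% and 1.87% against ESC. In differentiating clones against control lines, 3 rose, 0 fell and 18 were not called (median 0.40). P3h1, a prolyl 3-hydroxylase, rose by 0.70 ± 0.11 (adjusted p = 0.032), Sec23a, a coat protein of vesicles that leave the endoplasmic reticulum, by 0.42 ± 0.077 (adjusted p = 0.0393) and Lman1, a cargo receptor, by 0.38 ± 0.050 (adjusted p = 0.0258). Between the 2 states 7 rose, 3 fell and 11 were not called, so that the share higher was near the 33.1% of all genes called higher there and the share lower was under the 19.3% of all genes called lower. The largest were Serpinh1, the collagen chaperone HSP47, at 1.67 ± 0.15 (adjusted p = 0.00432), and the prolyl 4-hydroxylase subunits P4ha2 (1.23 ± 0.25, adjusted p = 0.0191) and P4ha1 (1.07 ± 0.12, adjusted p = 0.00592). In deficient iPSC against MEF, 0 rose, 20 fell and 1 was not called (median −1.94), with Serpinh1 at −4.86 (adjusted p = 3.96e-06). Deficient against control iPSC had 4 higher, 3 lower and 14 not called, led by Fkbp10, a collagen foldase, at −1.06 (adjusted p = 0.00429). With that array left out 7 were higher.

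Other basement membrane genes were read as a second list. Of 25 measured, 1 rose, 1 fell and 23 were not called in differentiating clones against control lines (median −0.05). Tinagl1, a secreted matrix glycoprotein, rose by 1.56 ± 0.28 (adjusted p = 0.038). Between the states 9 rose, 6 fell and 10 were not called, which is near the shares of all genes (33.1% higher and 19.3% lower), with Tinagl1 at 2.10 ± 0.16 (adjusted p = 0.00413) and Sparc, a collagen-binding protein, at 1.44 ± 0.16 (adjusted p = 0.00582). Deficient against control iPSC had 3 higher, 10 lower and 12 not called, and deficient iPSC against MEF had 4 higher, 14 lower and 7 not called, with Sparc at −4.15 (adjusted p = 5.08e-08). When the array that stood apart was left out, 2 fell against control lines, 8 rose between the states and 11 fell in deficient against control iPSC. Of 13 laminin and collagen receptors, Sdc4, a syndecan, rose by 1.1 (adjusted p = 0.0395) and Itga3, an integrin subunit for laminin, fell by −0.64 (adjusted p = 0.0489) in differentiating clones against control lines, and 11 were not called. Between the states 1 rose (Sdc4, 1.21), 3 fell and 9 were not called, among them Dag1, dystroglycan, at −0.78 (adjusted p = 0.00409), and 4 fell without that array. Against control lines deficient iPSC had 2 receptors higher and 3 lower, and against MEF 2 higher and 8 lower. Against ESC all 25 other membrane genes were not called, 2 receptors were lower and 1 procollagen gene was higher.

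The differentiating clones were checked against markers of parietal endoderm. Of 14 such markers outside the members, 3 were higher, 1 was lower and 10 were not called against control lines (median 0.68). Gata6, an endoderm transcription factor, rose by 2.61 ± 0.34 (adjusted p = 0.026), Pth1r, the receptor of parathyroid hormone-related protein, by 1.64 (adjusted p = 0.0481) and Sox17 by 1.52 (adjusted p = 0.0381). Thbd was −0.66 (adjusted p = 0.404), Sox7 1.20 (adjusted p = 0.282) and Sparc 0.95 (adjusted p = 0.131), none of them called, and Tfpi2 fell by −0.50 (adjusted p = 0.0466). With that array left out 2 were higher and 2 lower, and Pth1r missed the threshold (1.80, adjusted p = 0.0587). Between the states 11 of 14 rose (12 without that array) and 0 fell, where 33.1% of all genes were called higher, led by Gata6 (2.02), Dab2 (1.84) and Pdgfra (1.62). The mean log2 signal of the list was 11.06, 10.44 and 10.18 in differentiating clones 8, A6 and B2, 9.36 to 10.02 in deficient iPSC, 9.59 to 10.08 in control lines and 11.39 in MEF, where 13 of the 14 were above background. Clone 8 had 11.33 and MEF 11.28 without that array.

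Visceral endoderm markers moved as well: of 16 measured, 3 rose, 0 fell and 13 were not called against control lines (median 0.26). Cubn, a receptor for nutrient uptake, rose by 3.80 (adjusted p = 0.0292), Foxa2 by 2.66 (adjusted p = 0.0327) and Rbp4, a retinol carrier, by 1.26 (adjusted p = 0.0487). Afp was 0.48 (adjusted p = 0.0811). Between the states 12 rose and 1 fell, where 33.1% of all genes were called higher and 19.3% lower. The numbers that rose were 4 against control lines and 10 between the states without the array that stood apart. The markers therefore did not single out parietal endoderm, and the clones are called differentiating throughout.

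Fibroblast markers, which feeder cells also express, were lower than in control lines or not called. Of 18, 0 rose, 5 fell and 13 were not called in differentiating clones against control lines (median −0.96), with Col3a1 at −1.61 (adjusted p = 0.0367), and 8 fell without the array that stood apart. Their mean log2 signal was 10.54, 10.31 and 10.03 in differentiating clones, 10.03 to 10.13 in deficient iPSC, 10.75 to 11.52 in control lines, 9.89 in ESC and 14.57 in MEF, and all 18 were above background in every kind. Among the differentiating clones this mean was highest in clone 8 and lowest in B2. In the test between clones 8 of 18 fibroblast markers were higher in clone 8 than in A6 and B2 and 0 were lower (9 and 0 without that array), where 7.03% of all genes were called higher. This was not particular to fibroblast markers. Of 14 parietal endoderm markers 4 were higher (12 without that array), and of 21 procollagen genes 4 (18), with 0 lower in each. Other basement membrane genes had 3 higher and 3 lower (6 and 6). Without that array 32% of all genes were called in either direction, with 3714 of 24899 higher and 4247 lower. Between the states 5 rose and 2 fell (6 and 3 without that array), where 33.1% of all genes were called higher and 19.3% lower. Among those that rose were S100a4 (1.54, adjusted p = 0.00425) and Dcn, decorin (1.19, adjusted p = 0.0228). In deficient against control iPSC 1 rose, 14 fell and 3 were not called (median −1.22), and 13 fell without that array. Of all genes, 31% were called lower there with all arrays. Against MEF all 18 were lower in deficient iPSC (median −4.56). The part of feeder RNA in the members' signals was not tested.

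Of 5 smooth muscle markers 3 fell in differentiating clones against control lines, of 12 trophoblast markers 1 fell (Eomes, −0.45), and of 10 endothelial markers 1 rose (Egfl7, 0.80; 2 without the array that stood apart). Of 9 pluripotency markers 0 were called against control lines, and between the states 0 rose and 6 fell (5 without that array), where 19.3% of all genes were called lower. Nanog was at −1.59 ± 0.14 (adjusted p = 0.00446), Klf4 at −0.99 (adjusted p = 0.0408) and Tdgf1 at −0.92 (adjusted p = 0.00832).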

How the data were processed

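RNA of 36 channels on 18 Agilent 2-colour arrays was analysed from the scanner output. Per the file headers, Feature Extraction 10.1.1.1 gave the mean spot intensity, the local background intensity and the flags of each dye, with probe positions on mm7. The deposited value table holds a log2 ratio per probe and array, with scale, centring and direction not stated. Set against the scanner values, it matched the log2 ratio of deficient over partner channel in direction, with slopes of 1.006 to 1.409, and column medians lay near 0. The match was not equally close on all arrays, with an absolute r of 0.635 to 0.999, lowest on an array with ESC. The submitters' processing notes name limma.

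With limma 3.58.1 (R 4.3.3) intensities were corrected by normexp (offset 50), normalized by loess within and Aquantile between arrays. Aquantile sets the average signal of all arrays equal, so a shift of most genes cannot be seen. Of 41174 non-control probes 36965 passed the filter, which asked for a signal well above background in 0.5 or more of the channels of 1 kind of RNA. The brightest probe stood for each of 24969 genes, named through RefSeq by accession (14400), symbol (2921) or synonym (1429), or as in the files (6219). A separate-channel fit with a dye term (intra-spot correlation 0.767) gave 12 line values, tested with limma, 2-sided, adjusted over all genes by Benjamini-Hochberg. The states were paired by clone. MEF and ESC contrasts came from ratios over the 18 arrays, dye included, and the between-clone test from 12 arrays with control line and dye terms. Scan day 1 held deficient iPSC, MEF and ESC (6 arrays), and scan day 2 the rest (12 arrays). No spot was saturated. The number of lines and arrays limits the precision.

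Named were all members in every comparison, Dnmt3a and Dnmt3b, up to 3 called genes with the largest difference per list, and the 5 genes most like Lama1 and Col4a1; list genes named without a call were chosen after their values were seen. A list gene that the counts include is not reported by name here. The members and the lists (other basement membrane genes, receptors, procollagen processing, and markers of parietal and visceral endoderm, fibroblasts, smooth muscle, trophoblast, endothelium and pluripotency) were chosen with earlier results of these data known. Same-numbered control arrays share the partner clone and slide, and on deficient arrays the number marks the partner RNA, so replicate numbers pair no cells across groups. The scripts were tested on simulated data. Background, normalization, filter, probe rule, blocks and left-out lines were varied.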

Additional observations from a re-analysis of the deposited data

Results flagged for a closer look

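On the 4 arrays of clone 8, the array with control line 5 lay far from the other 3. Its log2 ratio of differentiating clone over control was −0.16 for Lama1 (3.34 to 3.48 on the others), −0.17 for Lamb1 (2.91 to 3.04), −0.36 for Col4a1 (3.40 to 3.81) and 0.0245 for Col4a2 (2.27 to 2.43). With this array, control line 5 had a Lama1 log2 signal of 10.58, above the 9.53 to 9.61 of the other control lines. For Lama5, the array of clone 8 with control line 4 lay apart at −0.35, against −0.16 to −0.13 on the others. About 1 in 20 groups stands out in this way by chance.

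Without the array of control line 5 with clone 8, the change in clone 8 differed from the mean of A6 and B2 in each member. The difference was 1.28 for Lama1, −0.20 for Lama5, 1.79 for Lamb1, 1.26 for Lamc1, 2.09 for Col4a1, 1.49 for Col4a2, 0.52 for Nid1 and 0.48 for Nid2. Clone and slide cannot be told apart there, and that array was left out after its values were seen.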

How the results depend on the processing

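In differentiating clones against control lines, the number of members called higher (2 of 8) was 4 with processed signals, 1 without normalization between arrays, 5 with all iPSC in 1 fit (2022 genes called in place of 1236), 4 with a replicate block (1258 genes), 6 with slide as a random block (7254 genes) and 6 with the deposited value table (7850 genes). The last 2 take arrays rather than lines as replicates. It stayed at 2, with 2166 genes, without the array of control line 5 with clone 8. Leaving out 1 line gave 0 to 5 members. It gave 0 genes without A6, B2 or control line 3, 27 without control line 4 and 3473 without control line 6. With that array also left out, 624 to 4308 genes were called. At an unadjusted p under 0.05, those 3 fits with 0 calls had 3750, 4165 and 4208 genes. In the other comparisons, deficient against control iPSC had 19387 genes called without normalization between arrays (11537; 96.6% of calls higher in place of 32.9%), 12053 with a replicate block, 1 member lower with slide as a random block, and 0 to 1 lower and 8751 to 13693 genes without 1 line. The 2 states gave 20394 genes without normalization between arrays (13074; 5.04% higher in place of 63.2%) with 1 member lower, 12758 with no replicate block (5 members higher), and 0 to 6 members and 0 to 14511 genes without 1 clone, with 0 genes without A6 (10321 at an unadjusted p under 0.05) and 6875 without B2. Against MEF 1 member was higher with the mean of probes, and 1 to 2 higher and 3 to 4 lower without 1 array. Against ESC 3494 genes were called with processed signals (44.9% higher in place of 65.5%) and 3701 with the value table (41.6% higher), in place of 1350; the 3 arrays alone gave 0 genes and 0 members (4638 genes at an unadjusted p under 0.05), and leaving out 1 array gave 483 to 1462 genes and 0 to 1 members lower. Between clones the value table gave 1 member higher and 5808 genes, in place of 3846; leaving out the array of control line 5 with clone 8 gave 7 higher, 1 lower and 7961 genes, and leaving out 1 control line gave 0 to 7 higher, 0 to 1 lower and 121 to 8017 genes.

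Signs turned only in values that were not called. In deficient against control iPSC, Lamc1 was 0.066 with processed signals, 0.20 without normalization between arrays and 0.054 without the array of control line 5 with clone 8. Col4a1 was 0.38 without normalization between arrays, 0.0043 with the mean of probes and 0.12 without that array, Col4a2 was 0.25 and 0.0072 in the first and last of these settings, Dnmt3b 0.0045 without normalization between arrays, and Lama1 −0.083 with the replicate block. Leaving out 1 line there gave −0.30 to 0.495 for Lama1, −0.27 to 0.12 for Lamc1, −0.66 to 0.26 for Col4a1, −0.49 to 0.042 for Col4a2 and −0.64 to 0.056 for Dnmt3b, and −0.49 to 0.049 for Dnmt3b in differentiating clones against control lines. Against MEF, Lamc1 was −0.15 on the 3 arrays alone and −0.20 to 0.14 without 1 array, and Lama5 −0.49 to 0.0599. Against ESC Lama5 was −0.026 to 0.57, and between clones Lama1 was −0.26 to 1.31 without 1 control line. Nid1 was −0.23 within the slide of B2. The cause of these shifts was not tested.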
